A study of Mus musculus with 6 samples.

Results

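The 46 nephron segment genes followed here are marker genes of the cell types that line the nephron, and they were read on 6 arrays of Renca tumors to see which segments of host kidney left a signal in which tumor. They comprise 21 genes of the proximal tubule, 4 of the loop of Henle, 3 of the distal tubule, 6 of the principal cell and 5 of the intercalated cell of the collecting duct, and 7 of the glomerular podocyte. Of these, 44 had a row of the array paired with exactly 1 gene symbol and could be measured, out of 19938 such genes in all. Ggt1 of the proximal tubule and Magi2 of the podocyte had no such row and were not analysed here. Where a gene had several rows, the row with the highest mean over the 6 arrays was used, which among the measured members applied to Nphs1.

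Renca is a transplantable line from a kidney carcinoma of BALB/c mice. The arrays cover 3 intrakidney tumors, which arose in BALB/c mice after Renca cells had been placed in the outer renal cortex, and 3 subcutaneous tumors, grown from the same cells under the skin of other BALB/c mice. All 6 tumors were taken on day 12, frozen and read as total RNA of bulk tissue on Affymetrix Mouse Gene 1.0 ST arrays. The labels name no drug or genetic change, give neither age nor sex of the mice, and do not say how much adjoining tissue came with a tumor.

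The nephron filters plasma in the glomerulus, where podocytes hold the filter, and then recovers most of the filtrate in the proximal tubule through dense sets of sodium-coupled transporters and endocytic receptors. The thick ascending limb of the loop of Henle and the distal convoluted tubule take up salt through dedicated chloride cotransporters, and the collecting duct sets the final water, sodium and acid content through principal and intercalated cells. Glomeruli, proximal tubules and distal tubules lie in the cortex, where the cells were injected, while loops and collecting ducts run on into the medulla.

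Values are log2 RMA expression levels, 1 per array, and a difference of 1 is a doubling of signal. RMA values have neither a zero nor a detection call, so a low value is not evidence of absence, and levels of different genes are not compared. In bulk RNA, fewer cells of a type and less RNA per cell cannot be told apart. The labelled identity could be checked against 9 measured genes of renal epithelial lineage. Pax8, a transcription factor of kidney epithelium, lay between 10.08 and 10.18 in intrakidney tumors and between 10.04 and 10.15 in subcutaneous tumors. Cdh16, a cadherin of kidney tubules, lay between 11.46 and 11.81 in intrakidney tumors and between 11.51 and 11.60 in subcutaneous tumors. Cdh1, which encodes E-cadherin, had 9.09, 9.53 and 9.30 in intrakidney tumors 1, 2 and 3, against 9.78, 9.91 and 9.79 in subcutaneous tumors 1, 2 and 3, without overlap (limma, adjusted p = 0.209). Epcam, another epithelial adhesion gene, was -0.57, -0.025 and -0.089 from the subcutaneous mean in the 3 intrakidney tumors. Over the 9 genes the median difference from the subcutaneous mean was -0.046, -0.0043 and 0.0050 in intrakidney tumors 1, 2 and 3.

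Intrakidney tumor 3 stood apart before any nephron gene is considered. The summed linear signal of 10 hepatocyte genes was 619.0, 890.5 and 8548 in intrakidney tumors 1, 2 and 3, against 608.1, 641.5 and 739.2 in subcutaneous tumors 1, 2 and 3. All 10 were at least 2-fold above the subcutaneous mean in intrakidney tumor 3, and the median difference over the list was -0.14, 0.33 and 3.02 in the 3 intrakidney tumors. Alb, which encodes serum albumin, exceeded the subcutaneous mean by 0.33, 1.65 and 6.28 log2 units there. Adipocyte genes behaved in another way. Summed over the 9 that could be measured, their signal reached 2673, 2247 and 2752 in the 3 intrakidney arrays, against 971.5, 1065 and 985.3 in the 3 subcutaneous arrays, so all intrakidney arrays lay above all subcutaneous ones. Car3 and Fabp4 had the largest log2 group differences, 3.41 and 2.08. Plin1, Lep, Lipe and Pparg lay between -0.050 and 0.30 of the subcutaneous mean in the 3 intrakidney tumors. Beside the hepatocyte signal, the fold counts and the proximal tubule medians below are also given without 4 members. These are Cyp2e1, Slc27a2, Fbp1 and Pck1, the 4 proximal tubule members that are abundant in liver too. These 4 were set apart after the values had been seen, and the part of liver RNA in the other members' levels was not tested.

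Each intrakidney array was first set against the 3 subcutaneous arrays, and a member was counted where it was at least 2-fold above the subcutaneous mean and above every subcutaneous array. This has no test, since it concerns 1 array at a time. In intrakidney tumor 1, 1 of 44 members met it (2.27%, against 0.135% of all genes), in intrakidney tumor 2 also 1 (2.27%, against 0.1%), and in intrakidney tumor 3 10 (22.7%, against 0.802%). The single member in intrakidney tumors 1 and 2 was Cyp2e1. The 10 in intrakidney tumor 3 were the proximal tubule genes Slc34a1, Slc5a12, Slc27a2, Miox, Fbp1, Pck1, Cyp2e1 and Slc4a4, the loop gene Umod and the distal tubule gene Slc12a3. None of the 11 collecting duct genes and none of the 6 podocyte genes met it in any intrakidney tumor. In the other direction, 0 of 44 members were at least 2-fold below the subcutaneous mean and below every subcutaneous array in any intrakidney tumor, against 0.0953%, 0.0752% and 0.0602% of all genes.

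At 1.5-fold the counts were 1, 8 and 13 of 44, which is 2.27%, 18.2% and 29.5%, against 0.757%, 0.522% and 1.73% of all genes. The 8 members in intrakidney tumor 2 were Slc34a1, Slc5a12, Slc27a2, Miox, Pck1, Cyp2e1, Umod and Slc12a3, each of which also met the 2-fold criterion in intrakidney tumor 3. Lrp2, Kap and Slc12a1 were the further members at 1.5-fold in intrakidney tumor 3. Collecting duct and podocyte genes still gave 0. Without the 4 liver-shared members, the counts among the other 40 were 0, 0 and 6 at 2-fold and 0, 5 and 9 at 1.5-fold. Just inside the 2-fold line in intrakidney tumor 3 were Slc12a3 at 2.07-fold and Pck1 at 2.14-fold, and just outside it were Slc12a1 at 1.76-fold and Kap at 1.72-fold.

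**Figure D1:**
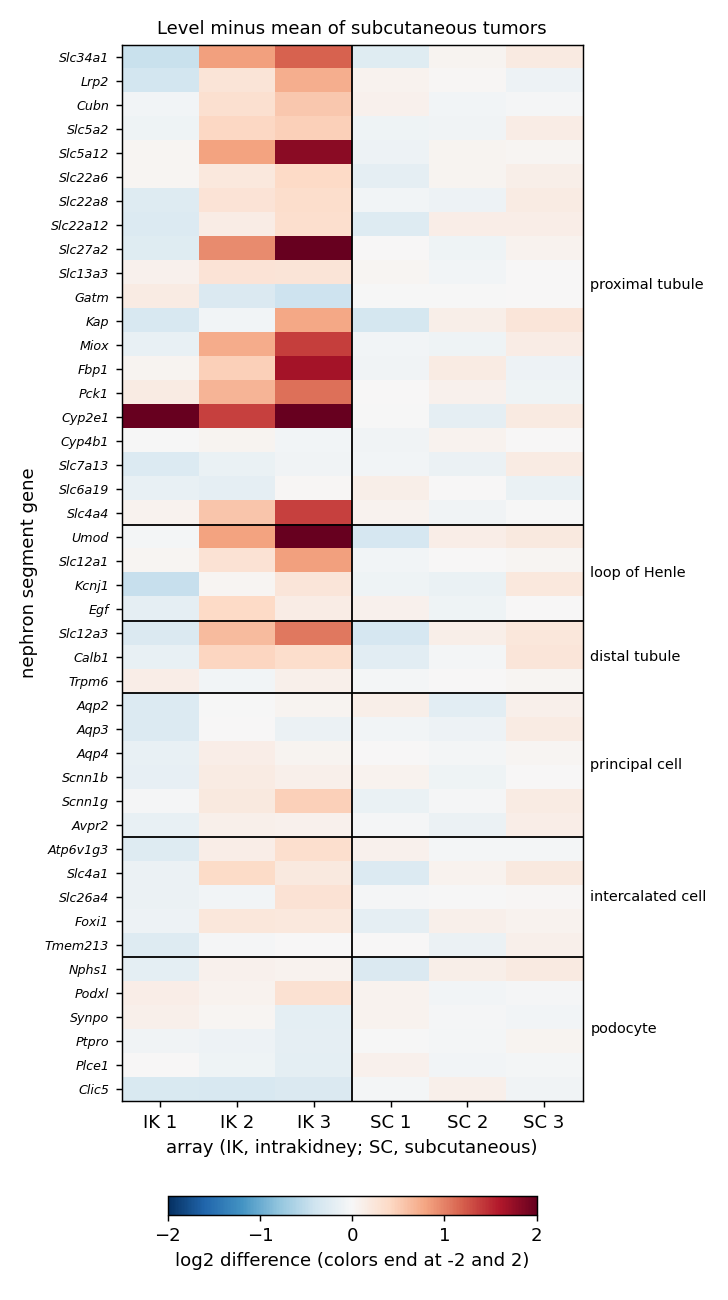
Each of the 44 measured members (rows, grouped by segment) on each array (columns, IK intrakidney and SC subcutaneous), as the log2 level minus the mean of the 3 subcutaneous tumors. The dark cells lie in the proximal tubule, loop and distal rows of intrakidney tumor 3, paler ones of the same rows lie in intrakidney tumor 2, and intrakidney tumor 1 has 1 dark cell, Cyp2e1, at 2.31.

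One order of the intrakidney tumors was common among these genes. Intrakidney tumor 3 was above intrakidney tumor 2 and that above intrakidney tumor 1 in 24 of 44 members (54.5%), against 15.2% of all genes and 20.6% of the dimmer genes, those under the median of the mean values. Intrakidney tumor 3 was above every subcutaneous array in 30 members (68.2%, against 24.7% of all genes and 23.0% of the dimmer genes), and intrakidney tumor 2 in 26 (59.1%, against 33.8% and 39.3%). Intrakidney tumor 1 was above every subcutaneous array in 7 members (15.9%, against 27.2% and 13.3%). It was below every subcutaneous array in 47.7% of the members, against 35.1% of all genes and 48.2% of the dimmer genes. Intrakidney tumor 2 was so in 18.2%, against 23.8% and 13.3%, and intrakidney tumor 3 in 13.6%, against 27.6% and 23.3%. Intrakidney tumor 1 lay below the subcutaneous mean in 31 members (70.5%), against 55.8% of all genes and 72.9% of the dimmer genes. The members also held brighter genes such as Gatm and Clic5, and no comparison at matched level was made. Intrakidney tumor 2 was shifted the other way, with a median difference of 0.077 over the dimmer genes, against -0.11 in intrakidney tumor 1 and -0.0027 in intrakidney tumor 3. The part of this shift in the members' differences was not tested.

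By segment, the proximal tubule had median differences of -0.076, 0.30 and 0.64 in intrakidney tumors 1, 2 and 3 over its 20 measured members. Without the 4 liver-shared genes these were -0.12, 0.27 and 0.43. The loop of Henle had -0.11, 0.34 and 0.53 over 4 genes, and the distal tubule had -0.15, 0.43 and 0.34 over 3 genes. The collecting duct was closer to the subcutaneous tumors in intrakidney tumors 2 and 3 only. Its medians were -0.16, 0.11 and 0.073 over 6 principal cell genes and -0.12, 0.13 and 0.21 over 5 intercalated cell genes. The podocyte genes had -0.037, -0.028 and -0.19 over 6 genes. Of these 6, 5 had a mean over all arrays above 6.82, as did 8 of the 20 proximal tubule genes. Clic5 and Plce1 averaged 10.34 and 9.32 in the subcutaneous tumors, which grew outside the kidney. Gatm and Cyp4b1 of the proximal tubule and Trpm6 of the distal tubule averaged 10.67, 8.76 and 9.02 there. Whether host RNA added to the levels of such genes was not tested, so the podocyte medians do not tell whether host podocyte RNA was present. Over all 19938 genes the medians were -0.026, 0.028 and -0.0096. The differences between segments were not tested. The SD over the 3 subcutaneous tumors of each list's median was 0.057 for the proximal tubule, 0.099 for the loop, 0.21 for the distal tubule, 0.11 for principal cells, 0.055 for intercalated cells and 0.037 for podocytes. An SD over 3 arrays is only a rough scale for the median of 1 array, so no segment was called by it.

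**Figure D2:**
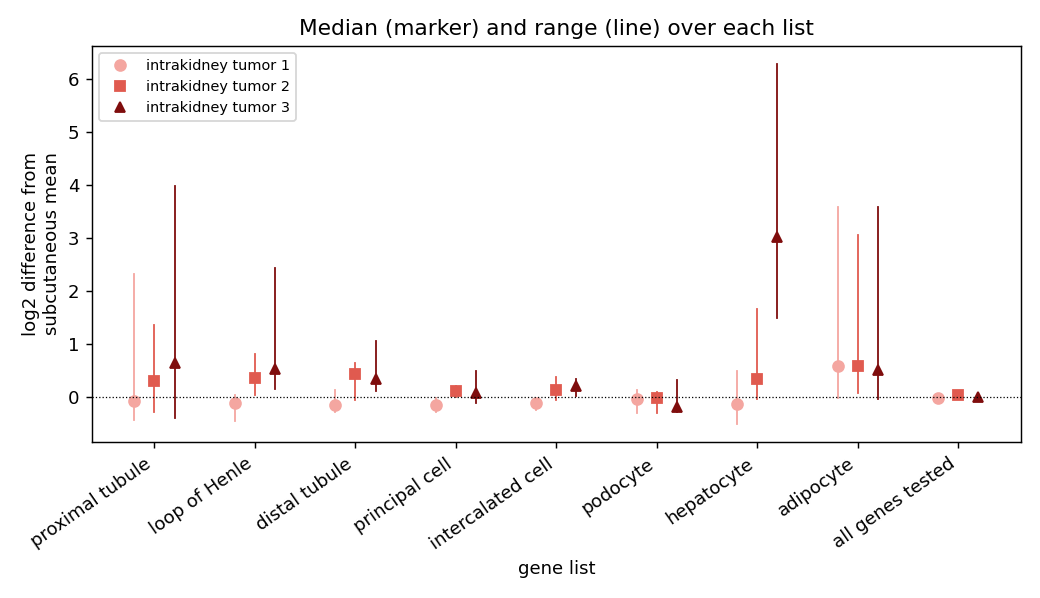
Median (marker) and full range (line) of the log2 difference from the subcutaneous mean over the measured genes of each list, for intrakidney tumors 1 (circle), 2 (square) and 3 (triangle). Proximal tubule, loop and distal medians lie between 0.30 and 0.64 in intrakidney tumors 2 and 3 and below 0 in intrakidney tumor 1, the hepatocyte list stands out in intrakidney tumor 3 at 3.02, and the adipocyte list is at 0.50 to 0.58 in all of them.

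Promoters are shown for 4 of the 8 members counted at 1.5-fold in intrakidney tumor 2 and at 2-fold in intrakidney tumor 3. They are 2 proximal tubule transport and metabolism genes, the loop gene Umod and the liver-shared Cyp2e1. The windows set the shared and unshared letters of genes that were high in the same tumors side by side. Each window holds 300 bases around the annotated start, 5′ to 3′ on the gene's strand, as RefSeq gives it for the build GRCm38.p6. Capitals mark GTTAAT, the repeated core of sites of the factor HNF1, CAAAGTC, a core of the HNF4 site, and TATAAA, the TATA box, each searched on both strands, so that ATTAAC and GACTTTG are GTTAAT and CAAAGTC on the other strand. No capitals overlap between motifs. The TATAAA match of Slc34a1 begins at base 17 after the annotated start, not before it where a TATA box lies, so there the capitals mark the letters only.
Slc34a1, chr13:55399398-55399697, plus strand: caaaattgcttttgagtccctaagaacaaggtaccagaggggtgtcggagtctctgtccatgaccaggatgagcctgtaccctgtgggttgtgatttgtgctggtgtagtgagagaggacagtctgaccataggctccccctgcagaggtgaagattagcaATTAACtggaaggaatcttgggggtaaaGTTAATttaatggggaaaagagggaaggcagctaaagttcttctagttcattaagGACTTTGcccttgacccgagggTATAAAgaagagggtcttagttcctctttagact
Miox, chr15:89334223-89334522, plus strand: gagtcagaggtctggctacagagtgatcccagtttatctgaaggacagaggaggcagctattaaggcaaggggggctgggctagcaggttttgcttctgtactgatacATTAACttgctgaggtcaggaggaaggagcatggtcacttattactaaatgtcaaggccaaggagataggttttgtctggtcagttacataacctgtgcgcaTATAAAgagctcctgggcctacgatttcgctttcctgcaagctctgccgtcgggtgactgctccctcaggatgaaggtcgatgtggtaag
Umod, chr7:119479213-119479512, minus strand: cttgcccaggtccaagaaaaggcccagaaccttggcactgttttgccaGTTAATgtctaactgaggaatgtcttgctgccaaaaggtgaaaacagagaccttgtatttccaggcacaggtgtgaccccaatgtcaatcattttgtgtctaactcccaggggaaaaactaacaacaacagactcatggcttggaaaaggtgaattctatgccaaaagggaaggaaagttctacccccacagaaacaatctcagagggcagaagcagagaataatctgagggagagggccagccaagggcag
Cyp2e1, chr7:140763569-140763868, plus strand: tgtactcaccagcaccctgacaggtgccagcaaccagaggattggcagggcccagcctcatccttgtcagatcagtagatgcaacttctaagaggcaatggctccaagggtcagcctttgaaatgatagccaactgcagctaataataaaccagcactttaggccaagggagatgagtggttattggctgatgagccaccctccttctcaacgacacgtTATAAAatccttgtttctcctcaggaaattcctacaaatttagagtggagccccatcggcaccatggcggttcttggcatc
GTTAAT stood in the Slc34a1, Miox and Umod windows and not in that of Cyp2e1, which held TATAAA. Of the members counted with them but not shown, Pck1 held GTTAAT, Slc27a2 and Slc12a3 did not, and Slc5a12 had no promoter entry. Of the 46 members 38 had a promoter entry. Among these, 9 held GTTAAT (23.7%, against 8.24% of 27025 genes), 2 held CAAAGTC (5.26%, against 5.0%) and 9 held TATAAA (23.7%, against 15.7%). Of the 10 members counted at 2-fold in intrakidney tumor 3, 9 had an entry and 4 held GTTAAT, namely Slc34a1, Miox, Pck1 and Umod, while 4 of 27 among the other measured members held it. A letter match is a description of these windows and no evidence of binding.

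The proximal tubule genes of solute and protein recovery were the largest group, with 8 measured members. Of these, 3 met the 2-fold criterion in intrakidney tumor 3. Among the 6 metabolic members 4 did, including the liver-shared Fbp1, Pck1 and Cyp2e1. Slc34a1, the main sodium-phosphate cotransporter of the brush border, had 6.14, 7.41 and 7.77 in intrakidney tumors 1, 2 and 3, against 6.35, 6.65 and 6.77 in subcutaneous tumors 1, 2 and 3. Intrakidney tumors 2 and 3 were above every subcutaneous tumor and intrakidney tumor 1 was below all of them. Slc5a12, a sodium-coupled lactate transporter, had 5.70, 6.47 and 7.46 in intrakidney tumors, against 5.56, 5.72 and 5.70 in subcutaneous tumors. Its level in intrakidney tumor 1 lay inside the subcutaneous range. Slc4a4, the basolateral sodium bicarbonate cotransporter, had 5.75, 6.23 and 7.05 in intrakidney tumors, against 5.75, 5.61 and 5.68 in subcutaneous tumors, again with intrakidney tumor 3 highest and intrakidney tumor 1 within the subcutaneous range. The endocytic receptors followed at smaller size. Lrp2, which encodes megalin, had 6.45, 7.09 and 7.55 in intrakidney tumors, against 6.90, 6.85 and 6.73 in subcutaneous tumors. Cubn, which encodes its partner cubilin, had 5.65, 6.04 and 6.26 in intrakidney tumors, against 5.79, 5.65 and 5.69 in subcutaneous tumors. For both receptors intrakidney tumors 2 and 3 exceeded every subcutaneous tumor. Slc5a2, the glucose transporter SGLT2, was 0.41 and 0.47 above the subcutaneous mean in intrakidney tumors 2 and 3 and -0.092 from it in intrakidney tumor 1. Of the amino acid transporters, Slc6a19 and Slc7a13 stayed between -0.27 and 0.019 in the 3 intrakidney tumors.

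Organic anion and acid transporters had smaller differences, with 1 exception. Slc27a2, a very long chain fatty acid acyl-CoA synthetase that is also abundant in liver, had 5.53, 6.72 and 8.68 in intrakidney tumors, against 5.78, 5.68 and 5.85 in subcutaneous tumors. It was 1.94-fold above the subcutaneous mean in intrakidney tumor 2 and 7.51-fold above it in intrakidney tumor 3. Slc13a3, a dicarboxylate transporter, had 7.30, 7.49 and 7.47 in intrakidney tumors, against 7.26, 7.17 and 7.23 in subcutaneous tumors. This was a small difference in which all intrakidney tumors exceeded all subcutaneous ones. The organic anion transporters Slc22a6 and Slc22a8 and the urate transporter Slc22a12 were 0.16 to 0.39 above the subcutaneous mean in intrakidney tumors 2 and 3.

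Among the metabolic genes, Miox, the renal enzyme that opens the ring of myo-inositol, had 5.38, 6.27 and 6.92 in intrakidney tumors, against 5.47, 5.44 and 5.68 in subcutaneous tumors. Intrakidney tumor 1 was thus below every subcutaneous tumor and the other two were above. Fbp1 and Pck1 encode enzymes of gluconeogenesis, a pathway of liver and proximal tubule. Fbp1 had 5.96, 6.37 and 7.57 in intrakidney tumors, against 5.84, 6.07 and 5.80 in subcutaneous tumors. Pck1 had 6.99, 7.51 and 7.93 in intrakidney tumors, against 6.84, 6.91 and 6.75 in subcutaneous tumors, without overlap between the groups. Cyp2e1, a cytochrome P450 that oxidises ethanol and is abundant in liver as well as in proximal tubule, had 8.36, 7.41 and 10.02 in intrakidney tumors, against 6.04, 5.87 and 6.24 in subcutaneous tumors. It was the member with the highest difference in each intrakidney tumor, 4.96-fold, 2.57-fold and 15.7-fold above the subcutaneous mean, and its order over the tumors was unlike that of the other members counted, since intrakidney tumor 1 exceeded intrakidney tumor 2. In intrakidney tumor 1 the 9 adipocyte genes had a median of 0.58 and ran from -0.026 for Plin1 to 3.59 for Car3, and the 10 hepatocyte genes had a median of -0.14 and ran from -0.51 for Apoh to 0.48 for Serpina1c. The part of fat or liver RNA in the Cyp2e1 level was not tested. Gatm, the first enzyme of creatine synthesis, had 10.83, 10.38 and 10.26 in intrakidney tumors, against 10.66, 10.67 and 10.68 in subcutaneous tumors. Here intrakidney tumor 3 was the lowest of all arrays. Cyp4b1, another cytochrome P450, differed by at most 0.058 in either direction. Kap, an androgen-regulated protein of mouse proximal tubule, had 5.08, 5.34 and 6.18 in intrakidney tumors, against 5.05, 5.51 and 5.63 in subcutaneous tumors, so that intrakidney tumor 3 alone lay above the subcutaneous range. Xist, the transcript of the inactive X chromosome, lay between 9.33 and 9.66 in intrakidney tumors and between 9.39 and 9.68 in subcutaneous tumors.

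**Figure D3:**
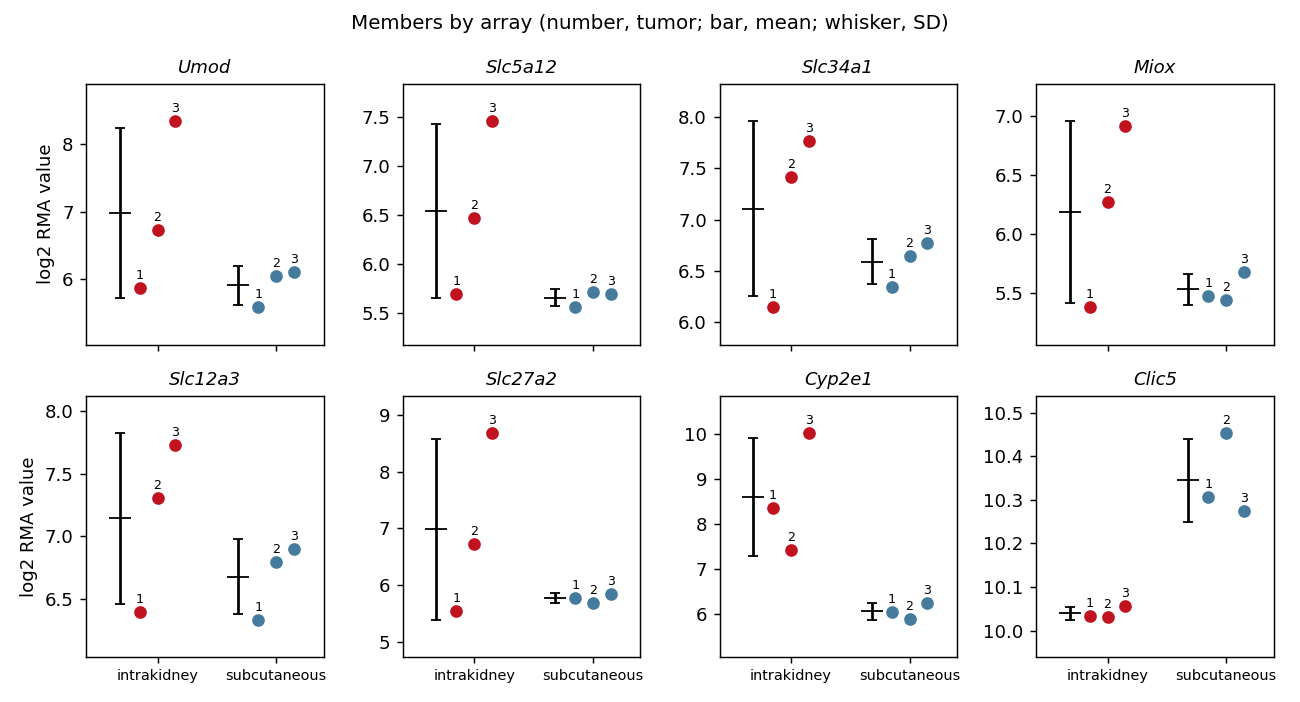
Log2 RMA values of 8 members on each array (numbered points), intrakidney tumors left in red and subcutaneous tumors right in blue, with the mean and SD of each group (n = 3) beside the points. Intrakidney tumor 3 is the highest point in all panels except that of Clic5, where the intrakidney tumors lie together at 10.03 to 10.06 under the subcutaneous ones.

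Among the 7 loop and distal tubule genes, Umod, Slc12a1, Slc12a3 and, with smaller differences, Kcnj1 had intrakidney tumor 3 above 2 above 1. Egf, Calb1 and Trpm6 did not. Umod, which encodes uromodulin, the main protein of normal urine and a product of the thick ascending limb, had 5.87, 6.72 and 8.34 in intrakidney tumors, against 5.58, 6.04 and 6.11 in subcutaneous tumors. It was 0.81 above the subcutaneous mean in intrakidney tumor 2, 2.43 above it in intrakidney tumor 3, and within the subcutaneous range in intrakidney tumor 1. Slc12a1, the furosemide-sensitive cotransporter of the same limb, had 5.69, 5.96 and 6.47 in intrakidney tumors, against 5.61, 5.66 and 5.70 in subcutaneous tumors. The potassium channel gene Kcnj1 was -0.46, 0.038 and 0.24 from the subcutaneous mean in intrakidney tumors 1, 2 and 3. The growth factor gene Egf was -0.19, 0.39 and 0.15 from it, highest in intrakidney tumor 2. In the distal convoluted tubule, Slc12a3, the thiazide-sensitive cotransporter, had 6.39, 7.31 and 7.73 in intrakidney tumors, against 6.34, 6.80 and 6.90 in subcutaneous tumors. Intrakidney tumors 2 and 3 again lay above the subcutaneous range. Calb1, the calcium-binding protein calbindin, had 4.63, 5.21 and 5.12 in intrakidney tumors, against 4.57, 4.74 and 5.01 in subcutaneous tumors. Intrakidney tumors 2 and 3 lay just above the highest subcutaneous value. Trpm6, a magnesium channel, differed by at most 0.13 in either direction. Umod, Slc12a1 and Slc12a3 are not among the genes set apart as liver-shared.

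The 11 collecting duct genes lay between -0.28 and 0.48 of the subcutaneous mean in the 3 intrakidney tumors. Aqp2, the vasopressin-regulated water channel of principal cells, had 7.40, 7.67 and 7.74 in intrakidney tumors, against 7.80, 7.47 and 7.78 in subcutaneous tumors, and the groups overlapped. The other water channels Aqp3 and Aqp4, the sodium channel subunits Scnn1b and Scnn1g and the vasopressin receptor Avpr2 lay between -0.27 and 0.48 of the subcutaneous mean over the 3 intrakidney tumors, with the largest value from Scnn1g in intrakidney tumor 3. Among intercalated cell genes, the proton pump subunit Atp6v1g3 had 5.67, 6.06 and 6.27 in intrakidney tumors, against 6.01, 5.89 and 5.88 in subcutaneous tumors. Slc4a1, the anion exchanger shared with red cells, Slc26a4, which encodes pendrin, the transcription factor Foxi1 and Tmem213 lay between -0.25 and 0.38. All 11 collecting duct genes were under the subcutaneous mean in intrakidney tumor 1, as were 55.8% of all genes and 72.9% of the dimmer genes. In intrakidney tumor 3, 10 of them were above it, by at most 0.48, as were 47.1% of all genes and 49.2% of the dimmer genes. Intrakidney tumor 3 was above 2 and that above 1 in 2 principal cell genes (33.3%) and 3 intercalated cell genes (60%). The shares were 15.2% of all genes and 20.6% of the dimmer genes.

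The 6 podocyte genes lay between -0.31 and 0.31 of the subcutaneous mean in the 3 intrakidney tumors. Nphs1, which encodes nephrin of the slit diaphragm, had 6.34, 6.63 and 6.61 in intrakidney tumors, against 6.26, 6.65 and 6.71 in subcutaneous tumors. Its second row on the array had 6.18, 6.42 and 6.22 in intrakidney tumors, against 6.52, 6.52 and 6.38 in subcutaneous tumors, so neither row was higher in the intrakidney tumors as a group. Podxl, which encodes podocalyxin of podocytes and endothelium, had 7.88, 7.82 and 8.05 in intrakidney tumors, against 7.82, 7.70 and 7.72 in subcutaneous tumors. The 11 endothelial genes measured had median differences of 0.21, 0.24 and 0.18 in the same tumors, and their part in the Podxl level was not tested. Synpo, Ptpro and Plce1 lay between -0.20 and 0.099. Clic5, a chloride channel family protein of podocyte foot processes and other epithelia, had 10.03, 10.03 and 10.06 in intrakidney tumors, against 10.31, 10.45 and 10.27 in subcutaneous tumors, without overlap and with the intrakidney tumors lower.

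Between the groups, the 3 intrakidney tumors were compared with the 3 subcutaneous tumors by limma over all 19938 genes, two-sided, with Benjamini-Hochberg adjustment. None of the 44 members passed an adjusted p of 0.05, which 46 genes did (0.231%). Without adjustment, 5 of the 44 members were higher at p under 0.05 (Slc5a12, Slc13a3, Pck1, Cyp2e1 and Slc4a4), against 4.72% of all genes in that direction, and 1 was lower (Clic5), against 3.71%. The groups did not overlap, with intrakidney higher, for 3 members, Slc13a3, Pck1 and Cyp2e1, where 8.41% of all genes did so, and with intrakidney lower for 2, Ptpro and Clic5, where 6.53% did so. In either direction, 8.43% of all genes had an unadjusted p under 0.05 and 14.9% did not overlap. The median log2 difference was 0.12 over the members, 32 of which were above 0, and -0.0058 over all genes.

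Cyp2e1 had the lowest adjusted p among the members, with a log2 difference of 2.55 ± 0.57 (SE, limma, adjusted p = 0.209) and all 3 intrakidney tumors above all subcutaneous ones. Without intrakidney tumor 3 it was 1.83 (limma, adjusted p = 0.0989), and over all the settings tried its adjusted p ran from 0.0077 to 0.706. Umod differed by 1.07 ± 0.55 (SE, limma, adjusted p = 0.684) and by 0.39 without intrakidney tumor 3. Slc5a12 differed by 0.88 ± 0.38 (SE, limma, adjusted p = 0.591) and by 0.43 without that tumor. Slc34a1 differed by 0.52 ± 0.38 (SE, limma, adjusted p = 0.798), and by 1.00 without intrakidney tumor 1 (limma, adjusted p = 0.106). Pck1 differed by 0.64 ± 0.21 (limma, adjusted p = 0.436) and Slc4a4 by 0.66 ± 0.28 (limma, adjusted p = 0.591). Clic5 differed by -0.30 ± 0.075 (limma, adjusted p = 0.265). Umod averaged 6.98 ± 1.26 in intrakidney tumors and 5.91 ± 0.29 in subcutaneous tumors (SD, n = 3 each), so its intrakidney tumors differed more among themselves. For Clic5 it was the subcutaneous tumors that did, with 10.04 ± 0.014 in intrakidney tumors and 10.34 ± 0.095 in subcutaneous tumors (SD, n = 3 each). A fit that weighted each array by its agreement with its group passed 6 members, Slc5a12, Miox, Pck1, Cyp2e1 and Slc4a4 higher and Clic5 lower, where it passed 624 genes in all. It gave intrakidney tumors 1, 2 and 3 weights of 0.351, 0.679 and 2.57. Subcutaneous tumors 1, 2 and 3 had weights of 0.756, 3.55 and 0.609. The weighted counts thus leaned on intrakidney tumor 3, which carried the hepatocyte signal, and on subcutaneous tumor 2.

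**Figure D4:**
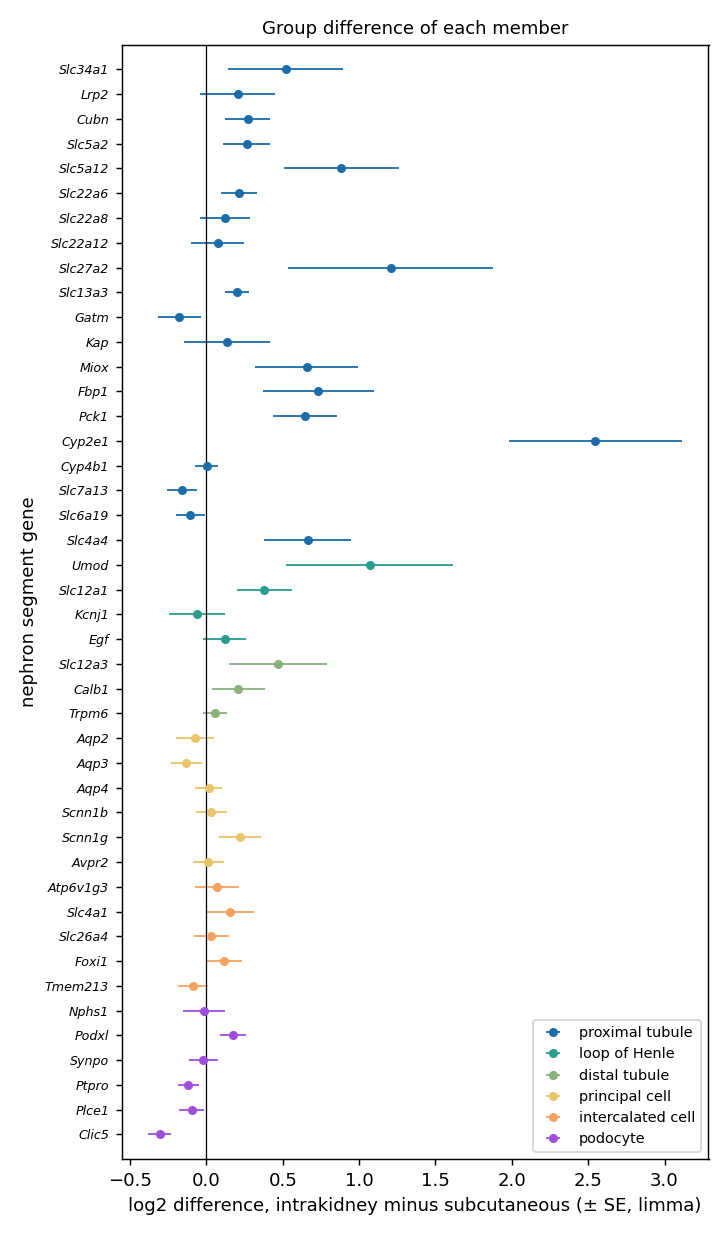
Log2 difference, intrakidney minus subcutaneous, of each measured member with its standard error from limma (horizontal lines), colored by segment. The differences above 0.5 belong to proximal tubule genes and Umod, the longest error line is that of Slc27a2 at 0.67, and Clic5 at -0.30 is the lowest.

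A wider set of 96 nephron genes outside the members, drawn from the same segments, gave 85 measured genes. None of these passed the threshold of the group comparison, while 3 were higher and 3 lower at an unadjusted p under 0.05, close to the 4.72% and 3.71% of all genes. At 2-fold, 0, 1 and 4 of 85 met the criterion in intrakidney tumors 1, 2 and 3, which is 0%, 1.18% and 4.71%, against 0.135%, 0.1% and 0.802% of all genes. At 1.5-fold 1, 4 and 11 did, which is 1.18%, 4.71% and 12.9%, against 0.757%, 0.522% and 1.73%. At 2-fold, the gene in intrakidney tumor 2 was Cltrn, and those in intrakidney tumor 3 were Cltrn, Keg1, Slc3a1 and Mep1a. Of these, Slc3a1 and Mep1a are named after their values were seen. No liver-shared genes were set apart in the wider set, and the part of liver RNA in its counts was not tested. The 40 further proximal tubule genes held the larger differences. Cltrn, which encodes collectrin, a partner of amino acid transporters, had 4.53, 6.39 and 7.45 in intrakidney tumors, against 4.72, 4.91 and 4.93 in subcutaneous tumors. Keg1 had 6.001, 6.62 and 7.53 in intrakidney tumors, against 5.83, 5.70 and 5.74 in subcutaneous tumors. Both were highest in intrakidney tumor 3 and no higher than the subcutaneous tumors, or only a little, in intrakidney tumor 1. Aqp1, the water channel of proximal tubule, thin limb and endothelium, had 8.60, 7.87 and 7.94 in intrakidney tumors, against 9.16, 9.07 and 9.29 in subcutaneous tumors. It was lower in every intrakidney tumor, with a log2 difference of -1.04 ± 0.19 (SE, limma, adjusted p = 0.114).

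In the other segments, the 8 further loop genes had median differences of 0.042 and 0.023 in intrakidney tumors 2 and 3. The 4 loop members had 0.34 and 0.53. The 7 further distal tubule genes had 0.0038 and 0.081, against 0.43 and 0.34 over the 3 members. Further principal cell, intercalated cell and podocyte genes had 0.056, 0.14 and 0.073 in intrakidney tumor 2. In intrakidney tumor 3 they had -0.045, 0.081 and -0.016. The genes named next were among those with the largest group differences of their segment. In the distal tubule, Trpv5, a calcium channel, was 0.53 and 0.76 above the subcutaneous mean in intrakidney tumors 2 and 3, while S100g, a calcium-binding protein, was -0.34 and -0.57 from it. Cldn10 of the loop reached 0.49 in intrakidney tumor 3, against -0.0065 in intrakidney tumor 2. The principal cell genes Fxyd4 and Gata3 were lower, with group differences of -0.23 each, and Npnt was at 0.18. Among intercalated cell genes Atp6v0d2, a proton pump subunit also found in osteoclasts and macrophages, differed by 0.43. Col4a3, a collagen chain made by podocytes, differed by -0.36, and the podocyte transcription factors Wt1 and Tcf21 by 0.18 each. None of these passed the threshold.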

How the data were processed

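Total RNA of 6 Renca tumors, 1 per mouse, was hybridized to Affymetrix Mouse Gene 1.0 ST arrays, per the labels' protocols. The submitters' processing notes name RMA and affy as the tools behind the deposited log2 values, with no version, setting or genome build. RMA removes background, makes arrays comparable and combines the probes of a transcript into 1 value, so differences of dim genes come out compressed. That the values are log2 follows from their range of 2.31 to 15.07. Precision is limited by the 6 arrays. Of 35512 rows, 21789 were paired with exactly 1 gene by the platform table, which left 19938 genes after taking, for 999 genes with several rows, the row with the highest mean.

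Groups were compared with limma 3.58.1 (lmFit, eBayes) in R 4.3.3, two-sided, with Benjamini-Hochberg adjustment over all genes, no block and no filter, and the scripts were tested on simulated data. Differences are intrakidney minus subcutaneous. Single intrakidney arrays were set against the subcutaneous mean without a test. Members and lists were chosen with earlier results of these data known. All members could be named. Of the wider nephron set, up to 3 genes a segment with the largest differences were named, and of lists of other cells those with the highest or lowest. Pax8, Epcam, Fabp4, Plin1, Lep, Lipe, Pparg, Serpina1c and Xist were picked after their values were seen. Red cell, keratinocyte, skeletal muscle and adrenal lists had median group differences of -0.026, -0.035, -0.10 and -0.0062. Promoter sequences are from RefSeq. Alternatives covered normalization, dim genes, an offset of 16, rows per gene, the prior, array weights, a replicate block, each array left out and a 1.5-fold limit.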

Additional observations from a re-analysis of the deposited data

How the results depend on the processing

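The count of all genes past the threshold depended on the setting. It was 46 as reported, 101 without genes under the 40th percentile, 74 with an offset of 16, 138 with an intensity trend and robust prior, 624 with array weights, 30 with intrakidney tumors 2 and 3 left out, 0 over all rows of the array, named or not, and 0 with the replicate block. Leaving out each array in turn gave 2 to 33 genes. The members' count stayed at 0 in these settings except with array weights, which gave 6, and without intrakidney tumors 2 and 3, which gave 1, Cyp2e1 at 2.31 (limma, adjusted p = 0.0077, the lone intrakidney tumor being assumed to vary like the subcutaneous ones). The labels do not say whether tumors of the same replicate number belong together. The correlations of same-numbered deviations were 0.37, -0.16 and 0.10, and those of unlike-numbered ones ran from -0.44 to 0.43. With 3 tumors a group such values cannot decide on a pairing, so the replicate block is only a description.

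Without dim genes 19 of the 44 members remained. The filter took genes by their mean over all 6 arrays, with a cut at 6.82. Slc34a1, Cyp2e1, Egf and Slc12a3 averaged 6.59, 6.05, 6.78 and 6.68 in subcutaneous tumors, so they passed only through their intrakidney values. The proximal tubule, loop and distal tubule medians after the filter are thus no independent check of the difference. The segment medians were then 0.038 in intrakidney tumor 1 and 0.53 in intrakidney tumor 3 for the proximal tubule, 0.15 in intrakidney tumor 3 for the loop, where Egf alone was left, and 0.58 in intrakidney tumor 3 for the distal tubule. They were -0.28 and -0.011 in intrakidney tumors 1 and 2 for principal cells, -0.18 and 0.10 in intrakidney tumors 1 and 3 for intercalated cells, and 0.0011 and -0.090 in intrakidney tumors 1 and 2 for podocytes. Of the principal cell genes Aqp2 alone was left, and the distal tubule and intercalated cells kept 2 genes each. With the offset, the intrakidney tumor 3 values were 0.52 for the proximal tubule and 0.42 for the loop. Without the 4 liver-shared members, set apart after the data were seen, the proximal tubule had 0.43 in intrakidney tumor 3, and the 2-fold counts were 0, 0 and 6. At 1.5-fold, intrakidney tumor 2 had 8 members. Leaving out each subcutaneous tumor moved the intercalated cell median between -0.21 and -0.11 in intrakidney tumor 1 and between 0.13 and 0.30 in intrakidney tumor 3. In the same settings the distal tubule ran between -0.25 and -0.033 and the loop between -0.18 and -0.067 in intrakidney tumor 1, the distal tubule between 0.24 and 0.46 and principal cells between 0.036 and 0.11 in intrakidney tumor 3, and podocytes between -0.062 and -0.017 in intrakidney tumor 1 and between -0.050 and -0.032 in intrakidney tumor 2, with principal cells in that tumor between 0.077 and 0.15. The cause of these shifts was not tested, other than the members lost to the filter. In all, 172 recomputed values stayed close to the reported ones and 33 moved.

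With 3 arrays a group, 1 tumor at a time has no replicate check. Apart from Cyp2e1, the members' 2-fold counts come from intrakidney tumor 3 alone, the array with the hepatocyte signal. Their 1.5-fold counts, again apart from Cyp2e1, come from intrakidney tumors 2 and 3.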

Other observations

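Slc13a1, a sulfate transporter of the proximal tubule brush border that is in none of the lists and was picked after its values were seen, was -0.094, 1.62 and 3.53 from the subcutaneous mean in intrakidney tumors 1, 2 and 3. It ranked 6 among all genes in intrakidney tumor 2 and 9 in intrakidney tumor 3.

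Among the 100 of 19938 genes with the largest difference above the subcutaneous mean, nephron segment members numbered 1, 8 and 6 in intrakidney tumors 1, 2 and 3. The smallest difference among the 100 was 0.67, 0.59 and 1.38 in these tumors. The counts thus rest on unlike limits and do not rank the tumors. The 10 hepatocyte genes numbered 0, 1 and 10 there. In intrakidney tumor 2 the members were Cyp2e1, Slc27a2, Slc34a1, Umod, Slc5a12, Miox, Pck1 and Slc12a3, and the hepatocyte gene was Alb.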
